A study of Bos taurus with 3 samples.

Results

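The miR-379 to miR-656 cluster was described in RNA of large dense-core vesicles from bovine chromaffin cells. Its members were taken from the count table by miRNA number, whatever the letter or arm, from a list of 40 numbers, 35 of which were in the table. They came to 50 of the 793 annotated mature miRNAs and lay on 48 hairpins. All 48 hairpins were matched by name to bovine RefSeq genes (assembly ARS-UCD2.0), and 46 of them lay on the chromosome of miR-379. The other 2 were the hairpins of miR-544b, which lay on other chromosomes and had no count anywhere. No level, share of counts or test below depends on miR-544b, but it stays among the 50 members.

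The cluster is a long run of miRNA hairpins in the imprinted DLK1-DIO3 region of placental mammals. Its hairpins are cut from long noncoding RNA that is made from the maternally inherited chromosome, so that many mature miRNAs share a common primary transcript and their levels can still differ through processing and stability. The cluster is best known from brain, where neuronal activity induces it and where single members act on dendrites and synapses, and its miRNAs are also found in endocrine cells. Chromaffin cells make up the adrenal medulla, secrete catecholamines and share their neural crest origin with sympathetic neurons. Large dense-core vesicles are their stores of hormones and peptides.

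The cells came from adrenal medulla of cattle obtained at local slaughter, and the labels give no treatment, age, sex or breed. Vesicles were purified, and small RNA libraries were made from 500 ng of their total RNA. The series has 2 libraries labelled technical replicates, called T1 and T2 here, and 1 labelled biological replicate, called B. The labels do not name the step that T1 and T2 repeat or the number of animals, so T1 and T2 were averaged into 1 preparation, and each mean ± SD is over n = 2 preparations. Whole cells were not analysed here, so the values show neither enrichment over the cell nor a place inside the vesicle, and fewer vesicles of a cell type cannot be told apart from less RNA per vesicle.

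Depth was 5546771 to 6708654 counts per library over mature miRNAs, and a count of 0 (limit of 3 counts) allows 0.447 to 0.541 CPM, the counts normalized to equal library size. Intervals and limits cover counting error only. The endocrine miRNAs miR-375 and miR-7 made up 42.8% to 44.1% of the counts in T1 and T2 and 47.3% in B. A list for vessel wall and connective tissue (7 of 7 mature miRNAs with at least 10 counts in each library) made up 1.86% to 2.07% in T1 and T2 and 1.14% in B. Leukocyte miRNAs (4 of 5) made up at most 0.00784%, erythrocyte miRNAs (2 of 3) at most 0.11%, striated muscle miRNAs (2 of 4) at most 0.0152% and the hepatocyte miRNA miR-122 at most 0.000108%. No miRNA of these lists was at 0 in all 3 libraries. The part of such differences in cell make-up in the results below was not tested.

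The cluster took 4.45% ± 0.0217 (SD, n = 2 preparations) of the counts. This was 4.25% in T1 (exact Clopper-Pearson 95% interval 4.237% to 4.27%), 4.67% in T2 (4.657% to 4.69%) and 4.43% in B (4.417% to 4.448%). B thus lay between T1 and T2, which differed from each other by more than the SD over preparations. With miR-375 left out of the total, the mean share was 7.34%.

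Nearly the whole annotated cluster was detected. With 10 counts or more in each library, 45 of the 50 members (90.0%) were measured, against 343 of all 793 mature miRNAs (43.3%). miR-1193, miR-409b, miR-453 and miR-544b had no count in T1, T2 or B, and miR-329b had 1 count each in T1 and B. miR-544b is among the 50 by its number only, since its hairpins lay on other chromosomes. The 45 measured members spanned a 6203-fold range of mean CPM, from miR-379 down to miR-539. Of these, 5 had a mean of at least 1000 CPM, 18 lay between 100 and 1000 CPM, 13 between 10 and 100 CPM and 9 under 10 CPM. Ligation of adapters is known to favour some small RNA sequences over others, so that CPM of different miRNAs are not a measure of their relative number of molecules.

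**Figure D1:**
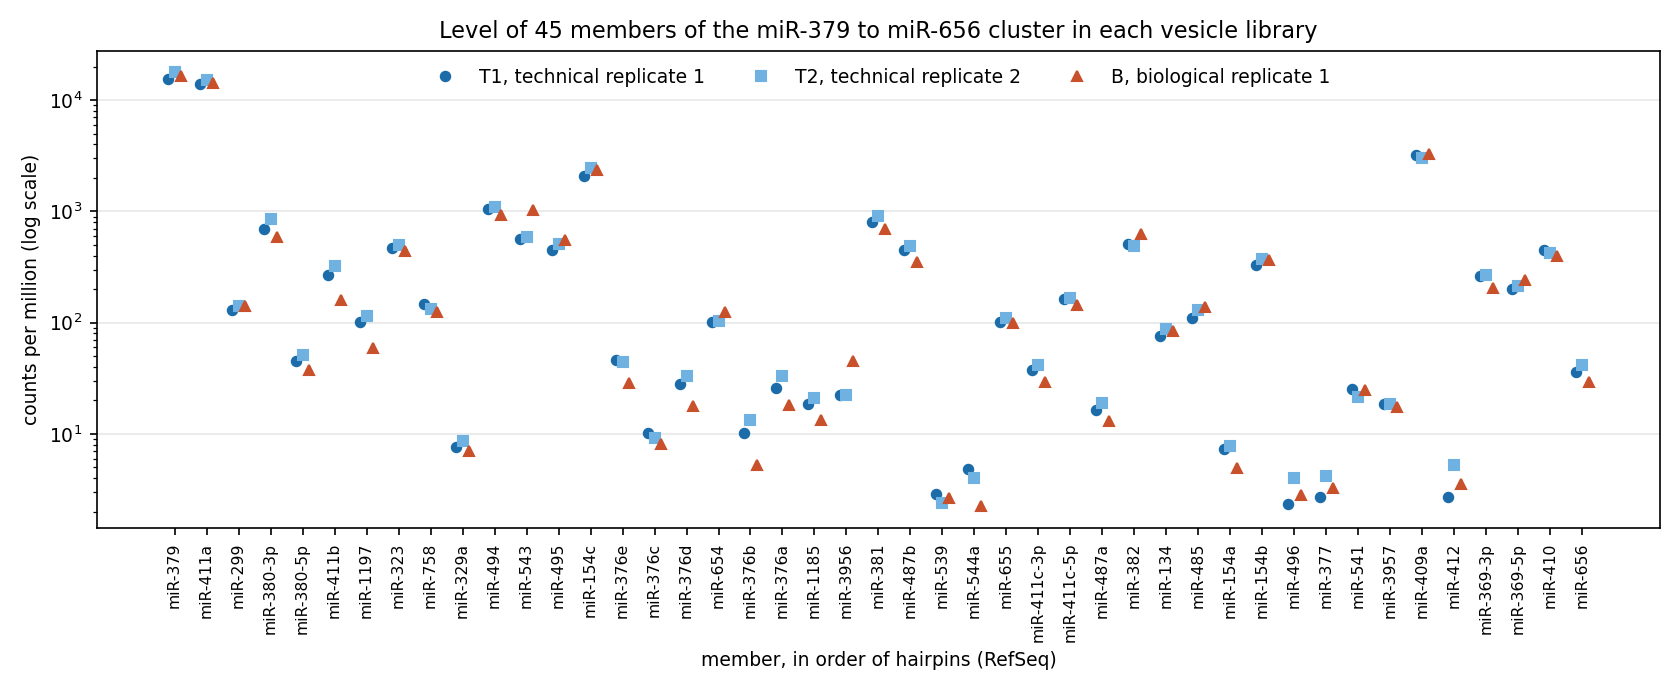
Level of the 45 measured members (CPM, log scale) in T1, T2 and B, placed in the order of their hairpins in RefSeq. The first positions, miR-379 and miR-411a, have mean levels of 16516 and 14477 CPM, and miR-539, the lowest, 2.66 CPM.

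miR-379 and miR-411a, whose hairpins come first and second in the cluster, dominated it. miR-379 (MIMAT0009306) had 15414 CPM in T1, 17759 CPM in T2 and 16445 CPM in B, a mean of 16516 ± 100.5 CPM (SD, n = 2), and ranked 12 among all mature miRNAs. miR-411a (MIMAT0009312) had 14015 CPM in T1, 15053 CPM in T2 and 14420 CPM in B, a mean of 14477 ± 80.7 CPM (SD, n = 2), and ranked 14. For both, B lay between T1 and T2. Together they took 69.2%, 70.2% and 69.6% of the cluster's counts in T1, T2 and B, so that the share of the whole cluster mostly follows these members.

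miR-409a and miR-154c came next. miR-409a had 3213 CPM in T1, 3029 CPM in T2 and 3308 CPM in B, which was the highest of the 3. For miR-154c, 2071 CPM in T1 and 2460 CPM in T2 enclosed the 2344 CPM of B. miR-494 had 1048, 1100 and 926 CPM in T1, T2 and B, lowest in B. The 12 most abundant members, which also include miR-543, miR-381, miR-380-3p, miR-382, miR-495, miR-323 and miR-410, held 93.4% to 94.2% of the cluster's counts in each library.

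Of the 7 members that complete the 12, miR-381 had 806, 913 and 702 CPM in T1, T2 and B. miR-380-3p had 701, 847 and 589 CPM, and like miR-381 it was lowest in B. miR-323, with 472, 499 and 442 CPM, and miR-410, with 447, 425 and 395 CPM, were also lowest there, by less. miR-410 has been reported to raise insulin secretion from beta cells. miR-543, miR-382 and miR-495 were highest in B and are given below.

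The 4 leading members kept their order in all 3 libraries. Further down, the order was less fixed. Of the 44 pairs of neighbours in the ranking by mean level, 17 had the same order in T1, T2 and B. miR-543 ranked below miR-494, miR-381 and miR-380-3p in T1 and T2 and above all of them in B.

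Among the members known from synapses, miR-134, which restrains the growth of dendritic spines, had 76.3, 87.5 and 84.2 CPM in T1, T2 and B. miR-485, which acts on the synaptic vesicle protein SV2A, had 111, 131 and 138 CPM. miR-329a, at 7.57, 8.64 and 7.01 CPM, was scarce. Each was thus detected in the vesicle RNA, with CPM far below those of miR-379. Of the members tied below to neuronal proteins, miR-543, miR-495 and miR-369-3p had higher means, of 804, 516 and 234 CPM. The mean of miR-496 was 3.0 CPM.

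Along the run of hairpins, high and low members stood side by side. miR-299, the third hairpin, had 129.6, 141 and 142 CPM in T1, T2 and B, next to miR-411a. The correlation of log2 mean CPM between neighbouring measured hairpins was weak (Pearson's r = 0.20, Spearman's rho = 0.17, over 41 pairs), a description of hairpins that share libraries and a transcript. With miR-379 and miR-411a set aside, the first 15 hairpins held 45.9% to 48.7% of the remaining cluster counts, the next 15 held 11.9% to 14.6% and the last 16 held 36.8% to 40.4%. The middle of the run was the lowest part in each library.

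The replicates ask how far the vesicle content repeats between preparations. B was tested against T1 and T2 with edgeR's quasi-likelihood test on all 367 miRNAs that reached 10 counts in a library, with TMM scaling and a Benjamini-Hochberg adjusted p below 0.05 as the threshold. Of the 45 members tested, 9 were higher and 6 lower in B, and 30 did not pass. These 15 are 33.3% of the members, against 37.9% of all miRNAs tested, so the share called was near the background. Among all miRNAs 17.7% were called higher and 20.2% lower. The median log2 fold change was 0 for the members (quartiles -0.23 and 0.23) and 0.01 for all tested (quartiles -0.32 and 0.25).

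The spread within a group comes from T1 and T2 alone, with 1 residual degree of freedom for each miRNA, and edgeR shares it between miRNAs. The prior degrees of freedom were estimated as infinite here, so that the p-values rest on a spread shared over all miRNAs, whereas they were 4.3 with library totals and 8.49 with hairpin rows summed. The p-values are about these libraries, not about animals, and serve as a threshold. TMM raised B by 0.18 log2 units over scaling by library totals, and the split of calls depended on it. With library totals 2 members were higher and 8 lower (edgeR, background 6.54% and 23.4%, 30.0% in all). With the fit limited to means of 100 CPM or more, 2 were higher and 5 lower of 23 (background 15.6% and 26.3%, 41.9% in all). DESeq2 called 5 higher and 2 lower of 40 members with an adjusted p (background 13.5% each way, 27.1% in all). Without the filter on low counts edgeR called 7 higher and 6 lower (background 11.0% and 14.8%, 25.9% in all), and with hairpin rows summed 8 higher and 5 lower (background 15.9% and 18.6%, 34.6% in all).

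**Figure D2:**
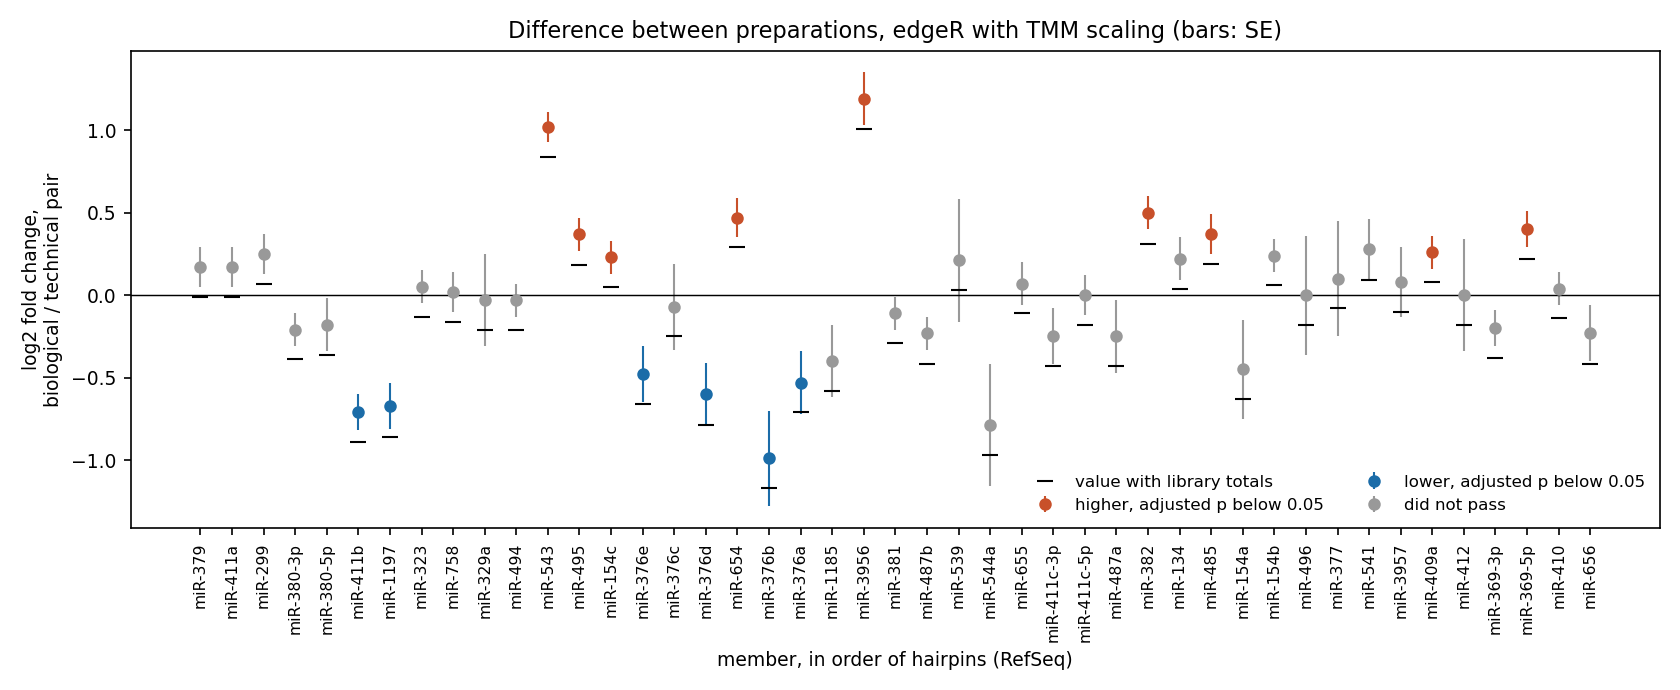
Log2 fold change of B over T1 and T2 for the 45 measured members in hairpin order (points with SE, edgeR with TMM scaling; coloured where the adjusted p was below 0.05), with the value from library totals as a dash. The dashes lie about 0.18 below the points, and miR-3956 and miR-543 stand highest at 1.19 and 1.02.

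The clearest rises were those of miR-543 and miR-3956. miR-543, which acts with miR-369-3p and miR-496 on the neuronal adhesion protein N-cadherin, had 568 CPM in T1, 587 CPM in T2 and 1031 CPM in B. T1 and T2 were close together and far from B. Its log2 fold change was 1.02 ± 0.09 (SE), with an adjusted p of 6.1e-22 (edgeR), and it passed in all 5 alternatives, with log2 fold changes between 0.84 and 1.03 and adjusted p-values between 2.1e-17 and 0.0042. miR-3956 had 124 and 140 counts (22.4 and 22.4 CPM) in T1 and T2 and 302 counts (45.0 CPM) in B, a log2 fold change of 1.19 ± 0.16 (SE, edgeR adjusted p = 6.3e-11). It passed in the 4 alternatives that fitted it, with log2 fold changes between 1.01 and 1.20 and adjusted p-values between 2.6e-14 and 0.0053.

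The other 7 rises were smaller, and each was lost under at least 1 alternative. miR-382 had 511 CPM in T1, 487 CPM in T2 and 621 CPM in B, a log2 fold change of 0.50 ± 0.10 (SE, edgeR adjusted p = 4.1e-06). It missed the threshold under 1 of the 5 alternatives, library totals, at 0.31 (edgeR adjusted p = 0.053; 0.00015 to 0.053 over the 5). miR-654, with 101, 103 and 125 CPM in T1, T2 and B, rose by 0.47, miR-369-5p by 0.40, and miR-485 and miR-495 by 0.37 each (edgeR adjusted p = 0.0008, 0.0011, 0.0084 and 0.00087). None of these 4 passed with library totals, where their log2 values were 0.29, 0.22, 0.19 and 0.18 (edgeR adjusted p = 0.091, 0.17, 0.35 and 0.26), or in the fit limited to means of 100 CPM or more. In DESeq2 miR-654 and miR-485 did not pass either (adjusted p = 0.053 and 0.14). Over the 5 alternatives the adjusted p ranged from 0.00099 to 0.091 for miR-654, from 0.0047 to 0.17 for miR-369-5p, from 0.014 to 0.35 for miR-485 and from 0.0093 to 0.26 for miR-495. miR-495, a miRNA reported to act on the neurotrophin BDNF, had 454, 512 and 549 CPM in T1, T2 and B. For miR-495, T1 and T2 differed from each other by more than T2 and B did. The same held for miR-485, with 111, 131 and 138 CPM.

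miR-409a and miR-154c were called higher by small margins, at 0.26 and 0.23 (edgeR adjusted p = 0.018 and 0.042). miR-154c passed in none of the 5 alternatives (adjusted p between 0.11 and 0.80), and B lay between T1 and T2. miR-409a passed in 1 of the 5, with hairpin rows summed, and its adjusted p ranged from 0.046 to 0.53.

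The firmest drops were those of miR-411b and miR-1197, from neighbouring hairpins at places 5 and 6 of the run. miR-411b had 269 CPM in T1, 321 CPM in T2 and 159 CPM in B, a log2 fold change of -0.71 ± 0.11 (SE, edgeR adjusted p = 1.2e-08). miR-1197 had 102 CPM in T1, 114 CPM in T2 and 59.6 CPM in B, a log2 fold change of -0.67 ± 0.14 (SE, edgeR adjusted p = 1e-05). B lay below T1 and T2 for both. miR-411b passed in all 5 alternatives and miR-1197 in all 4 that fitted it, with log2 fold changes between -0.89 and -0.70 and between -0.86 and -0.67. The miRNAs on the hairpins to either side, miR-380-3p (-0.21) and miR-323 (0.05 with TMM, -0.13 with library totals), did not pass. miR-380-3p passed in the fit limited to means of 100 CPM or more (-0.36, edgeR adjusted p = 0.002; 0.002 to 0.22 over the 5 alternatives).

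The 4 measured members named miR-411 differed in level and in what they did. miR-411a had a log2 fold change of 0.17 ± 0.12 (SE) with TMM and -0.01 with library totals and passed in neither. miR-411c-5p was at 0 with TMM and -0.18 with library totals, and miR-411c-3p at -0.25 and -0.43, also without passing. As the one member called, miR-411b fell from 0.633% and 0.687% of the cluster's counts in T1 and T2 to 0.359% in B, a measure that does not depend on the scaling between libraries. miR-411a held 32.9%, 32.2% and 32.5% by the same measure. These miRNAs carry like names because their sequences are alike, so the split of reads between them is uncertain.

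The miR-376 family is a group of closely alike miRNAs whose hairpins are known substrates of adenosine-to-inosine editing in brain. Of its 5 measured members, 4 were lower in B in edgeR, and none of the 5 passed in DESeq2. None was higher in edgeR or in DESeq2, at an adjusted or an unadjusted p below 0.05. Of all miRNAs tested, 20.2% were called lower in edgeR, and 13.5% of those with an adjusted p in DESeq2. With library totals 4 of the 5 were again lower (background 23.4%), and with hairpin rows summed 3 were, since miR-376a then missed the threshold (edgeR adjusted p = 0.069; 0.0026 to 0.33 over its 4 alternatives). miR-376e had 45.8 CPM in T1, 44.3 CPM in T2 and 28.5 CPM in B, a log2 fold change of -0.48. miR-376d had 28.1, 33.4 and 17.9 CPM (-0.60), and miR-376a had 26.0, 33.3 and 18.2 CPM (-0.53). In each of these B lay below T1 and T2.

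miR-376b, the scarcest of the 4, had 56 counts in T1, 83 in T2 and 35 in B, a log2 fold change of -0.99 ± 0.29 (SE, edgeR adjusted p = 0.0024). miR-376c, listed on 3 hairpins with identical counts and counted once, had 56, 57 and 54 counts and did not pass (-0.07). Summed, the family had 120.1 CPM in T1, 133 CPM in T2 and 77.8 CPM in B. All 5 log2 fold changes were negative with TMM, with library totals and in DESeq2. In DESeq2 none of the 5 passed, at an adjusted or an unadjusted p below 0.05, and the family rests on 522 to 834 counts per library. Reads can be shared or split among members so alike, so these are not 5 independent measurements.

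The hairpin of miR-654 lies among those of the miR-376 family, between miR-376d and miR-376b. Its miRNA went from 0.237% and 0.221% of the cluster's counts in T1 and T2 to 0.281% in B, while miR-376d went from 0.0661% and 0.0715% to 0.0404%. A difference between the neighbours was not tested as such. Likewise miR-3956, highest of the rises in the edgeR fit, follows miR-1185, which had 18.6, 21.0 and 13.3 CPM in T1, T2 and B and did not pass (-0.40).

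**Figure D3:**
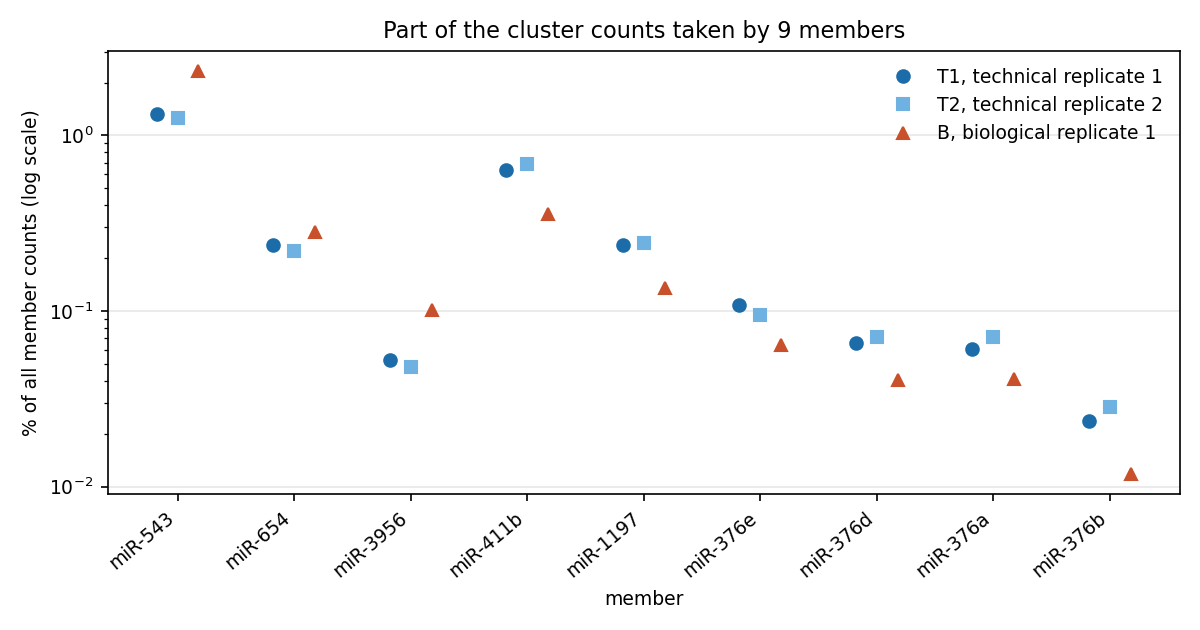
Percent of all cluster counts (log scale) taken in each library by 9 members chosen after their values were seen, with T1, T2 and B as points. The B point of miR-543 lies at 2.33% against 1.33% and 1.26%, whereas those of miR-411b, miR-1197 and the 4 miR-376 members shown lie below T1 and T2.

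Rises and drops did not follow the order of the hairpins in any simple way. The correlation of log2 fold changes between neighbouring measured hairpins was near 0 (Pearson's r = 0, Spearman's rho = 0.01, over 41 pairs of hairpins that share libraries), and 20 of the 41 pairs had the same sign. In the first 15 hairpins 3 of 14 members were higher and 2 lower, and in the next 15 hairpins 2 of 16 were higher and 4 lower. In the last 16 hairpins 4 of 15 were higher and none lower (edgeR, also none at an unadjusted p below 0.05, and none in DESeq2). Over all miRNAs tested 17.7% were higher and 20.2% lower. With library totals that last block had none higher at the adjusted threshold in edgeR (1 at an unadjusted p below 0.05). It had 1 lower (3 at an unadjusted p below 0.05), against a background of 6.54% higher and 23.4% lower. DESeq2, which used its own scaling, called 2 higher and none lower there (background 13.5% each way). In the edgeR fit limited to means of 100 CPM or more, 1 was higher and 1 lower there (background 15.6% and 26.3%). Without the filter on low counts 3 were higher and none lower in edgeR (background 11.0% and 14.8%), with 1 lower at an unadjusted p below 0.05. With hairpin rows summed 4 were higher and none lower (edgeR, background 15.9% and 18.6%). Mean level and log2 fold change were weakly related (Pearson's r = 0.33, Spearman's rho = 0.37, across 45 members of the same libraries). Among the 23 members whose mean reached 100 CPM, 8 were higher and 1 lower, where 30.5% and 18.6% of all miRNAs at that level were (49.1% in all), and in the fit limited to that level 2 of the same 23 were higher and 5 lower. Among the 22 below it 1 was higher and 5 lower, where 7.0% and 21.5% of all miRNAs below it were (28.5% in all).

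Both arms were named for 3 hairpins, and their ratio does not depend on how libraries are scaled. In mir-369 the arm with more counts was 3p in T1 and T2 and 5p in B. Since ligation favours some sequences, this does not show which arm had more molecules. The 5p arm held 43.2% of the counts of both arms in T1 (exact 95% interval 41.3% to 45.1%), 44.7% in T2 (42.9% to 46.5%) and 54.2% in B (52.4% to 56.0%). The intervals of T1 and T2 overlapped each other and did not reach that of B. miR-369-5p had 1111, 1341 and 1619 counts in T1, T2 and B, and miR-369-3p, known for a part in the translation of TNF mRNA, had 1462, 1662 and 1366. miR-369-3p did not pass (-0.20, edgeR adjusted p = 0.15), but passed with library totals (-0.38, edgeR adjusted p = 0.038; 0.021 to 0.34 over the 5 alternatives). With 3 libraries an exact permutation test of the arm share cannot reach 0.05, the smallest one-sided p it allows being 0.333, and none was made.

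In the other hairpins the arm share moved less. The 5p arm of mir-380 held 6.06% (5.35% to 6.83%) in T1, 5.68% (5.09% to 6.32%) in T2 and 5.99% (5.3% to 6.75%) in B. That of mir-411c held 81.3% (78.8% to 83.5%), 79.9% (77.7% to 82.1%) and 83.1% (80.9% to 85.3%). All intervals of a hairpin overlapped here. The arm with more counts was 3p in mir-380 and 5p in mir-411c in T1, T2 and B.

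**Figure D4:**
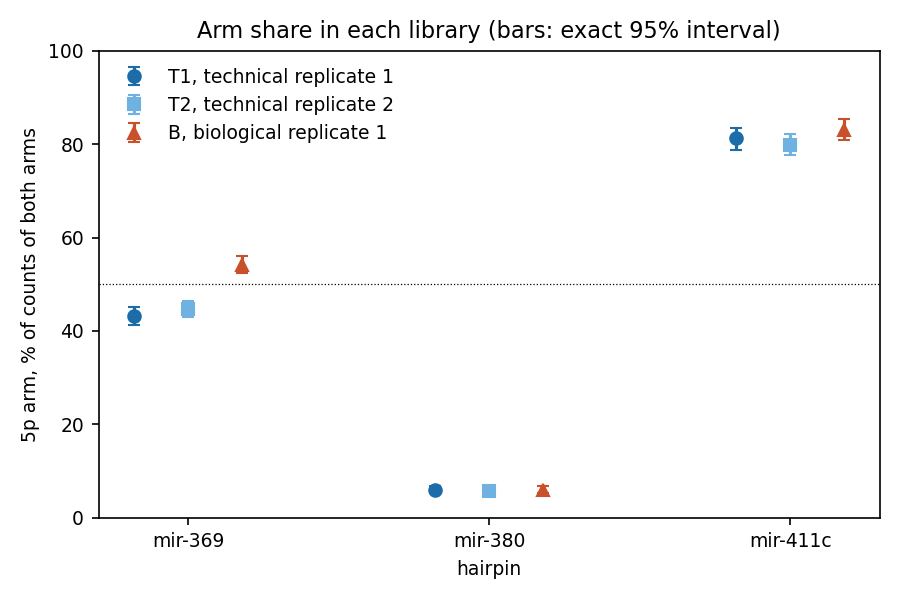
Share of the 5p arm in the counts of both arms of mir-369, mir-380 and mir-411c in each library, with exact 95% intervals for counting error and a dotted line at equal arms. In mir-369 B, at 54.2%, lies above the line, and T1 and T2 lie below it.

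T1 and T2 themselves differed in a shared direction. Of the 45 members 35 had a higher CPM in T2 than in T1, with a median log2 ratio of 0.13, against 222 of 366 miRNAs and a median of 0.05 over all tested miRNAs with counts in T1, T2 and B. The median absolute log2 ratio between T1 and T2 was 0.17 for the members and 0.12 for all. Between B and the mean of T1 and T2 it was 0.22 for the members and 0.29 for all, on CPM from library totals. The difference between preparations was the larger one for 31 of the 45 members (68.9%), the same share as for all tested (252 of 366, 68.9%). On the same scale B lay above T1 and T2 for 9 members (20.0%, background 24.5%), below both for 26 (57.8%, background 59.1%) and between them for 10.

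The group of miR-127 and miR-136 lies before miR-379 in the same imprinted region, in and around the RTL1 gene. Its 8 measured miRNAs (8 of the 10 numbers listed were in the table) took 1.82% ± 0.0411 (SD, n = 2) of all counts, most of it miR-127 with 15635 CPM in T1, 16945 CPM in T2 and 15591 CPM in B. That puts miR-127 near miR-379 in level. Of the 8, 2 were higher and 1 lower in B (edgeR), which is 37.5% against 37.9% of all miRNAs tested. miR-493 had a log2 fold change of 0.46, miR-433 of 0.47 and miR-432 of -0.34. With library totals none was higher at the adjusted threshold in edgeR (2 at an unadjusted p below 0.05). miR-493 and miR-433 were both at 0.28 there, and miR-432 was lower, at -0.53 (2 lower at an unadjusted p below 0.05). The background was 6.54% higher and 23.4% lower. DESeq2, which used its own scaling, called 2 higher and 1 lower (background 13.5% each way). A difference between this group and the miR-379 to miR-656 members was not tested, and both rest on the same 3 libraries.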

How the data were processed

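Small RNA counts of 3 vesicle libraries (T1, T2 and B) were used. The authors deposited raw read counts per mature miRNA and hairpin (919 rows) with CPM values beside them. All 2757 deposited CPM values equalled count over column total within 0.0051. A second deposited table holds log2 values for 459 rows, equal to log2(CPM + 0.1) over those rows, and served as an alternative. It held all 45 tested members. The submitters' processing notes name the build UMD3.1 and edgeR, with aligner, counting tool and miRBase release not given in the sources used here.

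Each mature miRNA kept its hairpin row with the most counts, and CPM were taken over these. A count of 10 equalled 1.49 to 1.80 CPM. B was compared with T1 and T2 by edgeR 4.0.16 (R 4.3.3; TMM, quasi-likelihood test) for the 367 miRNAs reaching 10 counts in any library, adjusted over all 367. SEs are the absolute log2 fold change over the root of F. The test was checked on simulated data with the same spread in all libraries, which does not cover spread between preparations. Alternatives were library totals, DESeq2 1.42.0, no filter, a mean of at least 100 CPM, and summed hairpin rows. The members and lists were chosen with earlier results of these data known. Named members were the 12 most abundant, up to 6 rises and 6 drops at 10 CPM or more, and arms with at least 100 counts each. Others, such as miR-376b, were named after their values were seen. RefSeq gave hairpin names and order only, since its assembly is not the build of the files. The p-values rest on the spread between T1 and T2, which are labelled technical replicates, and hold no spread between preparations.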

Additional observations from a re-analysis of the deposited data

How the results depend on the processing

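The cluster's share of 4.45% became 3.38% with hairpin rows summed and 7.34% without miR-375 in the total, where the construction of the total accounts for the change. Without 1 of T1, T2 or B it lay between 4.34% and 4.55%. The 15 calls became 7 in DESeq2, all 7 among the 15, and 7 with only miRNAs of at least 100 CPM, where 9 of the 15 were fitted and 3 of them were called. The 9 higher became 2 with library totals, 5 in DESeq2 and 2 with only miRNAs of at least 100 CPM, and the 6 lower became 2 in DESeq2. Library totals, no filter and summed rows gave 10, 13 and 13 calls, of which 8, 13 and 13 were among the 15. Calls gained outside the 15 were all lower in B. With only miRNAs of at least 100 CPM they were miR-369-3p, miR-380-3p, miR-381 (-0.26, edgeR adjusted p = 0.027) and miR-487b (-0.38, edgeR adjusted p = 0.0031). With library totals they were miR-369-3p and miR-487b (-0.42, edgeR adjusted p = 0.036). For the group of miR-127 and miR-136, 3 calls became 1 and 2 higher became 0 with library totals. Signs turned for miRNAs that never passed. With library totals miR-379 and miR-411a were at -0.01, miR-323 at -0.13 and miR-410 at -0.14. With only miRNAs of at least 100 CPM miR-323 was at -0.10 and miR-410 at -0.11, and with summed rows miR-411c-5p was at 0.01. miR-411b and miR-543 passed in all 5 alternatives, and miR-1197 and miR-3956 in all 4 that fitted them. The cause of calls lost was not tested. With a library left out, the 5p share of mir-380 (5.93%) lay between 5.84% and 6.03%, that of mir-369 (49.1%) between 43.9% and 49.4%, and that of mir-411c (81.9%) between 80.6% and 82.2%. Counts of calls could not be tested with a library left out, because no residual degree of freedom remains. No paired analysis was possible, because B is 1 library and the replicate number it shares with T1 does not mark a pair. Depth limits the 9 members under 10 CPM, for which SEs reached 0.37 on the log2 scale.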
